A study of Acomys cahirinus and Mus musculus with 10 samples.

Results

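The keratin-associated protein genes, whose *M. musculus* symbols start with Krtap, were taken as a family by that symbol alone and followed in ear tissue after a hole punch. The annotation held 58 such genes and 53 of them, in 25 numbered subfamilies, had a row in at least 1 *M. musculus* table, among 24092 genes with a row. The other 5, *Krtap19-9a*, *Krtap28-10*, *Krtap28-13*, *Krtap29-1* and *Krtap6-3*, had no transcript in the reference used for mapping and were not analysed here. In *A. cahirinus*, 17 assembly components, the gene-level units of its assembled transcripts, were paired with a member as reciprocal best hits by BLASTN bit score at less than 99% identity. Sexually mature females of *A. cahirinus*, a spiny mouse from a laboratory colony, and of *M. musculus*, the outbred CD-1 stock, were compared, and the labels name the punched *A. cahirinus* tissue regenerating and the punched *M. musculus* tissue fibrotic. No transgene or deletion is named for either. A 4 mm hole was punched through the ear and a ring of tissue next to the healing margin was taken at D5, D10, D15 and D20, while D0 tissue was uninjured. By the study's methods 3 animals were used for each species and day, and each group is 1 entry in the labels.

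Keratin-associated proteins form the matrix between the keratin filaments of the hair shaft and are cross-linked to them largely through disulphide bonds. They are grouped by composition into high sulphur and ultra-high sulphur proteins, rich in cysteine, and high glycine-tyrosine proteins. Their genes are short, lie in clusters and are used in differentiating hair cells above the hair matrix in the growing phase of the hair cycle, and the skin between hairs uses hardly any of them. Here a coding sequence with at least 30% cysteine codons was called ultra-high sulphur (19 members) and, of the rest, one with at least 35% glycine and tyrosine codons high glycine-tyrosine (14 members). The cysteine rule came first, so *Krtap5-2* and *Krtap5-3*, which reach both with 35.97% and 39.33% glycine and tyrosine codons, stand in the ultra-high sulphur class. The remaining 20 members held between 4.0% and 29.8% cysteine codons, so they are called the remaining members and not a high sulphur class.

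To show what these classes mean in bases, 120 coding bases are given for members to which the results return, with cysteine codons in capitals for the first pair and glycine and tyrosine codons in capitals for the second. *Krtap5-2*, the ultra-high sulphur member with the highest read mean, lies on the minus strand of chromosome 7 at chr7:142174535-142176005 (GRCm38). *Krtap17-1*, a subfamily of 1 gene, lies on the minus strand at chr11:99993234-99993994. *Krtap8-1* and *Krtap19-3* lie on the minus strand at chr16:89487379-89487952 and chr16:88877513-88878038.
Krtap5-2 coding bases 910 to 1029: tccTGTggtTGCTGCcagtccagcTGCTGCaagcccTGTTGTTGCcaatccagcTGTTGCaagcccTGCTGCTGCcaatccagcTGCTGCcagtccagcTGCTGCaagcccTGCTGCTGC
Krtap17-1 coding bases 4 to 123: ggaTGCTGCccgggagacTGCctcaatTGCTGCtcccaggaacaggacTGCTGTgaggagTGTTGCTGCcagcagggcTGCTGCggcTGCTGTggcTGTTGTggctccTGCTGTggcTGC
Krtap8-1 coding bases 37 to 156: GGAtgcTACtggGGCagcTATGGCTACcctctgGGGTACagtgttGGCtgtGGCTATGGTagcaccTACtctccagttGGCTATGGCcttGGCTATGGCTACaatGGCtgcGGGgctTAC
Krtap19-3 coding bases 94 to 213: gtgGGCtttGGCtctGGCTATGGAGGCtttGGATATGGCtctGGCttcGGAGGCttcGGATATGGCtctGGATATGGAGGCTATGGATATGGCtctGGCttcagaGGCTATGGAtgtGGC
Of the 40 codons in each stretch, 20 in *Krtap5-2* and 19 in *Krtap17-1* encode cysteine, and 23 in *Krtap8-1* and 28 in *Krtap19-3* encode glycine or tyrosine.

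Levels are group means in normalized reads per library, the value that the authors' comparison rests on, and all days of a species were put on the scale of its D0 group. The tables give pooled values, and their means summed over all genes to 7843591 to 8426504 normalized reads per library in *M. musculus* and 14454829 to 16608988 in *A. cahirinus*. For members whose reads came out whole, the reads of each of 3 libraries could be read back from the group mean, and libraries were then numbered in the order of the value of 1 read, which names no animal and ties no library of a day to that of another. Before the results, 1 library needs naming. Among the 15 members with whole reads and at least 20 of them at D10 in *M. musculus*, library 1 was lowest in 15 and library 3 was highest in 15, and the highest value was 6.11 to 46.4 times the lowest, with a median of 13.5. The size factors of the D10 libraries, 1.31, 1.40 and 1.46, were close together. Its values are given below for genes whose D10 reads could be read back. The summed mean, calls, median fold change, class ratios and class shares at D10 rest on the authors' pooled values and include it, and they could not be formed without it.

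In *M. musculus*, the family was low at D0, lower at D5 and higher at each later day. The summed mean over the 53 members was 248 normalized reads per library at D0 and then 61.0, 1360, 8157 and 19312 from D5 to D20. Per 1000000 normalized reads this was 30.5, 7.24, 167, 1031 and 2462. *Krtap3-2* alone held 159 of the 248 at D0, and without it the sums were 89.5 at D0 and 31.4 at D5. In bulk tissue, fewer cells of a type and less RNA per cell cannot be told apart, and this holds for all values below.

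A gene was called higher or lower than D0 where the authors' posterior probability of differential expression, from EBSeq, was at least 0.95, and all 4 comparisons share the D0 group. At D5 none of the 48 members with a row was called higher and 4 were called lower, against 16.5% of all genes higher and 13.6% lower. The 4 were *Krtap3-2*, *Krtap5-5*, *Krtap7-1* and *Krtap10-10*, and at a posterior probability of 0.99 this count was 1. At D10, 35 of 53 were called higher and 1 lower, against 15.1% and 14.1% of all genes, and at 0.99 the count of higher calls was 26. The D15 counts were 47 higher and 0 lower, against 13.2% and 12.5%. By D20, 50 members were called higher and 0 lower, against 12.3% and 11.9%. The family therefore held a larger share of higher calls than the table as a whole on the last 3 days and no higher call on the first.

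The median log2 fold change of the members against D0 was -1.62, 4.65, 7.07 and 8.05 from D5 to D20, beside -0.10, -0.07, -0.07 and -0.04 over all genes with a row. For 9 members with no read at D0 a fold change depends on the constant in the authors' ratio. With these 9 set at the fold that 3 reads over the D0 group would allow, the median was 4.00, 6.59 and 7.48 at D10, D15 and D20. From D5 to D10, D15 and D20, the mean of 52 of the 53 members was higher at each step, and 40 members had a lower mean at D5 than at D0.

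**Figure D1:**
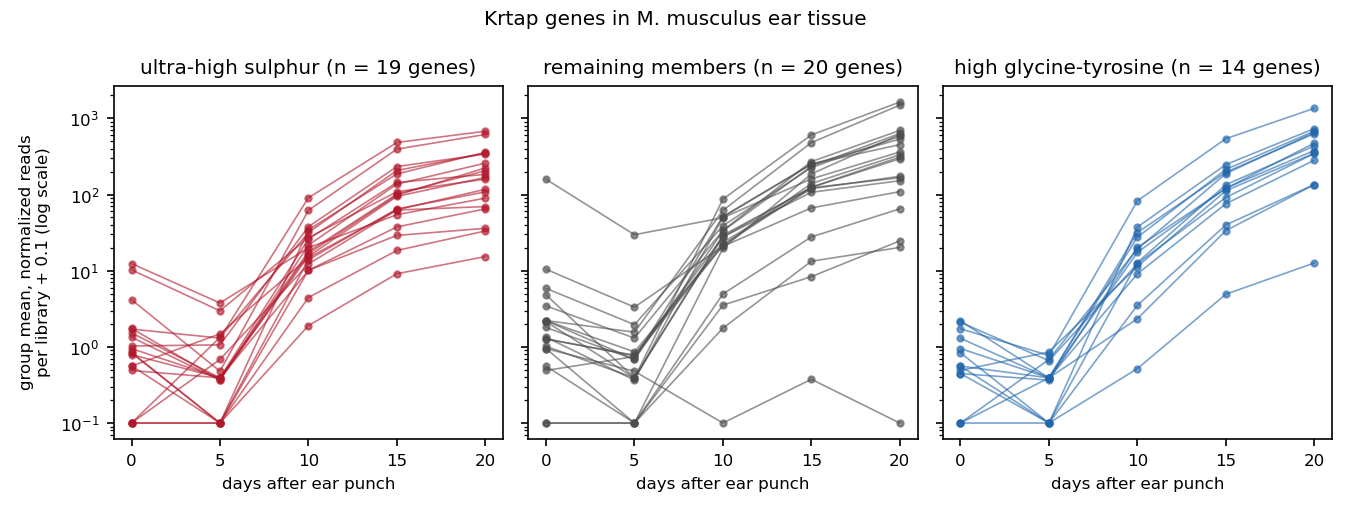
Group means of the 53 Krtap genes in *M. musculus*, in normalized reads per library plus 0.1 on a log scale, against days after the punch, with 1 line a gene and 1 panel a composition class. The lines climb from D5 to D20 in all panels, apart from the flat line of *Krtap13* near 0, and *Krtap3-2* starts highest at 159.

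The reads behind these values show how little of the family was present in uninjured ears. At D0, 41 members had whole reads, of which 9 had no read over the 3 libraries, 22 had 1 to 3 reads and 10 had 4 or more, and the highest of them, *Krtap7-1*, had 11 reads with an exact 95% Poisson interval of 5.49 to 19.7. Such intervals cover counting error only. A D0 mean of at least 10 was reached by 4 of the 53 members, *Krtap3-2*, *Krtap10-4*, *Krtap12-1* and *Krtap10-10*. At D20 a mean of at least 10 was reached by 52 members and a mean of at least 100 by 42.

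For members with no read at D0 only a lower limit of the fold can be given. *Krtap19-3*, a high glycine-tyrosine member of subfamily 19, was at least 547-fold higher at D20, where its mean was 654. *Krtap14*, a member with a subfamily number of its own, was at least 513-fold higher with a mean of 613, *Krtap5-4* at least 292-fold with a mean of 349, and *Krtap19-1* at least 113-fold with a mean of 135. *Krtap9-1*, an ultra-high sulphur gene, was at least 90.6-fold higher. Among members with 1 read at D0, *Krtap21-1* had a D20 mean of 734 and a ratio of 2121 with a counting interval of 330 to 72786, so its fold is known only loosely.

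The highest means at D20 belonged to 3 genes of chromosome 16. *Krtap7-1* had means of 4.73, 0.29, 86.8, 605 and 1637 from D0 to D20. *Krtap15* had means of 2.11, 1.46, 61.9, 480 and 1492 on those days, and *Krtap8-1* had 1.63, 0.67, 82.6, 541 and 1355. Against D0, the D20 mean was 346 times higher for *Krtap7-1* (counting interval 209 to 749), 706 times for *Krtap15* (321 to 2309) and 832 times for *Krtap8-1* (332 to 3123). All 3 were called higher at D10, D15 and D20. Per kilobase of transcript, the scale on which levels of different genes can be compared, *Krtap7-1* stood at 2636, *Krtap8-1* at 2341, *Krtap15* at 1785, *Krtap19-3* at 1243 and *Krtap16-3* at 1192 at D20, the 5 highest values of the family.

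*Krtap7-1* is a small gene on the minus strand of chromosome 16, and its class falls between the named ones with 9.2% cysteine and 29.9% glycine and tyrosine codons. Its first 120 coding bases are shown for both species because it is the member with the highest level and is paired, with the bases that differ in capitals. It lies at chr16:89507703-89508323 (GRCm38).
Mouse Krtap7-1: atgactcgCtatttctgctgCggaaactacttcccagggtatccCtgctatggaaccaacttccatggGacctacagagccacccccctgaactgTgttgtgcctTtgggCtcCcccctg
Acomys Krtap7-1: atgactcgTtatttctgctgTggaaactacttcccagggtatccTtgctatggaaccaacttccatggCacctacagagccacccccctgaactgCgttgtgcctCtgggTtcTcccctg
These stretches differ at 8 of 120 bases, and identity over the 264 aligned coding bases was 93.2%.

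Values in single libraries could be followed through all 5 days for 9 members with whole reads in every group, *Krtap9-5*, *Krtap16-1*, *Krtap17-1*, *Krtap27-1*, *Krtap13*, *Krtap14*, *Krtap19-4*, *Krtap20-2* and *Krtap11-1*. Their summed values in libraries 1, 2 and 3 were 11.0, 4.68 and 0 at D0 (mean 5.23 ± 5.53, SD, n = 3). At D5 they were 1.14, 3.50 and 0. At D10 they were 24.4, 139 and 242 (mean 135 ± 109), at D15 764, 1100 and 435 (mean 766 ± 333) and at D20 1900, 1012 and 1894 (mean 1602 ± 511). D0 and D5 overlapped, every D10 library stood above every D0 library although library 1 was only 24.4, the D10 and D15 libraries did not overlap, and the D15 and D20 libraries did. With 3 libraries against 3 an exact permutation test cannot go below 0.10, so none was run on these values. The D10 mean was 190 without library 1 and 81.5 without library 3. Without library 1 the D0 mean was 2.34, and without library 2 the D5 mean was 0.57.

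Single members behaved alike in this respect. *Krtap17-1* had 1, 1 and 0 reads at D0 and 0, 1 and 0 at D5, then 8, 50 and 70 reads at D10, 128, 206 and 103 at D15 and 220, 148 and 290 at D20. *Krtap14* had no read in any D0 or D5 library, then 3, 26 and 68 reads at D10, 162, 283 and 121 at D15 and 686, 473 and 1058 at D20. Both genes were detected in every library from D10 on, with the fewest D10 reads in library 1. *Krtap8-1* had 12, 138 and 260 reads at D10 and *Krtap16-3*, a high glycine-tyrosine gene, had 2, 32 and 103. At D15, the highest value of a member was 2.01 to 11.7 times its lowest (median 2.70, 13 members), with library 2 highest in 13 of 13 and the lowest value in library 3 for 10 and library 1 for 3. At D20 it was 1.46 to 10.4 times (median 2.00, 10 members), with library 2 lowest in 10 of 10 and the highest value in library 1 for 6 and library 3 for 4. The members thus shared 1 extreme library at D15 and at D20 and differed in the other extreme.

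**Figure D2:**
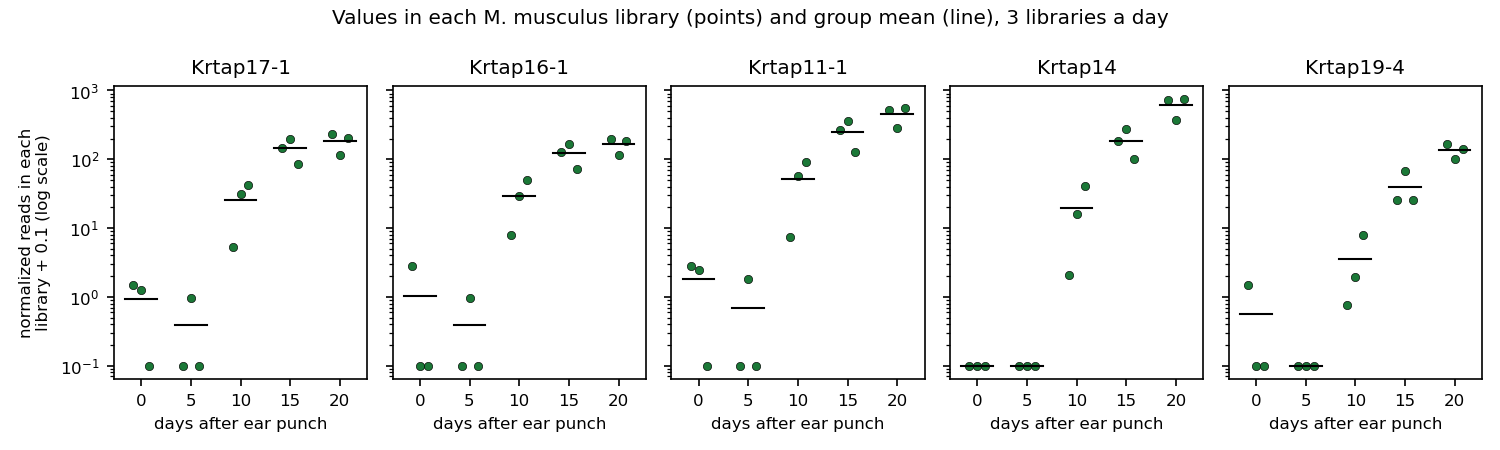
Values of *Krtap17-1*, *Krtap16-1*, *Krtap11-1*, *Krtap14* and *Krtap19-4* in each *M. musculus* library (points), in normalized reads plus 0.1 on a log scale, and the group mean (line), against days after the punch. D0 and D5 points lie near the floor, the 3 D10 points of each gene are spread widest of the last 3 days, and D15 and D20 points overlap for *Krtap17-1*, *Krtap16-1* and *Krtap11-1* and not for the other genes.

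Genes outside the family also had low values in D10 library 1. It was lowest in 13 of 15 genes of the hair lists with whole reads at D10 and in 9 of 14 markers of other cell types. The share of all genes with their lowest value in library 1 was not computed, so nothing is read from these counts about hair genes. *Krt36* and *Krt40*, keratins of the hair shaft, stood at 3.30, 14.8 and 22.0 and at 3.96, 17.3 and 28.5 in libraries 1, 2 and 3. *S100a3*, a calcium-binding protein of the hair cuticle, stood at 89.6, 311 and 462, and *Krt26*, a keratin of the inner root sheath, at 62.6, 126 and 203. *Foxn1*, a transcription factor of hair and epidermal cells, stood at 97.6, 113 and 113, so it was nearly level across the 3 libraries. *Krt84* did not have its lowest value in library 1, with 27.7, 13.0 and 23.2. Among the other markers, *Mc5r*, a receptor of the sebaceous gland, stood at 1.98, 13.0 and 19.6, *Oca2*, a pigment gene, at 3.30, 11.8 and 14.3, and *Cnmd*, a cartilage gene, at 204, 98.4 and 166. The part of animal, punch position or hair stage in the difference between D10 libraries was not tested.

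The members differed in when their level increased. Taking the D20 mean over the D15 mean in members with a D10 mean of at least 5, the ratio was 1.11 to 2.29 with a median of 1.68 in 17 ultra-high sulphur members. It was 1.35 to 3.28 with a median of 2.38 in 16 remaining members and 2.51 to 3.95 with a median of 3.21 in 11 high glycine-tyrosine members. With cysteine taken first, the ultra-high sulphur and high glycine-tyrosine ranges did not overlap. *Krtap5-2* and *Krtap5-3*, which meet both rules, had ratios of 1.40 and 1.46, so the ranges would overlap if they were counted with the high glycine-tyrosine members. The ratio of D15 to D10 was 2.72 to 6.53 (median 5.43) in the former and 5.96 to 10.6 (median 7.44) in the latter. Members of a class share sequence and position and come from the same libraries, so these are descriptions of groups of genes and no test was run on them.

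The share of the family level held by a class shifted with this. High glycine-tyrosine members held 21.1% of the summed read mean at D10, 26.0% at D15 and 34.2% at D20. Ultra-high sulphur members held 34.3%, 30.9% and 21.1% on those days, and the remaining members 44.6%, 43.1% and 44.8%. At D20, 13 of 14 high glycine-tyrosine, 18 of 19 ultra-high sulphur and 19 of 20 remaining members were called higher, so the classes differed in their time course and little in how many were called. At D10 the counts were 9 of 14, 13 of 19 and 13 of 20.

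**Figure D3:**
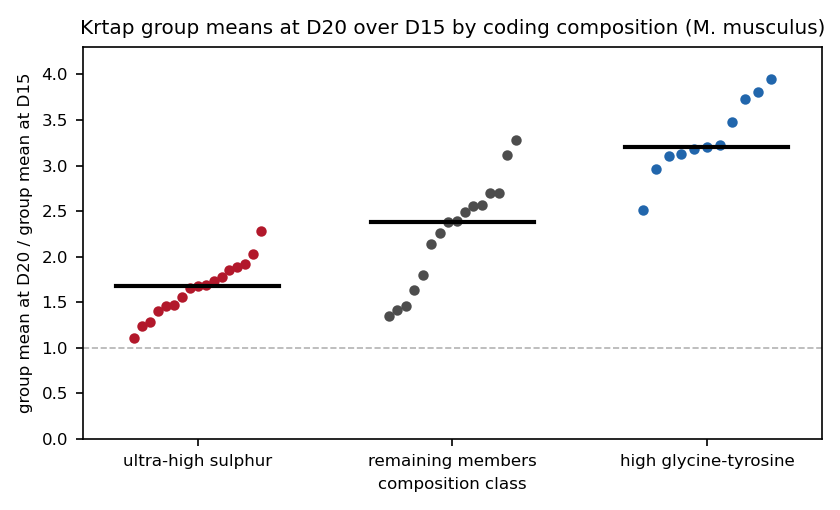
Group mean at D20 over group mean at D15 for each *M. musculus* member with a D10 mean of at least 5 (points), by composition class, with the class median as a line. Ultra-high sulphur members lie between 1.11 and 2.29 and high glycine-tyrosine members between 2.51 and 3.95.

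Ratios of members within a library do not change with a scaling that all members of that library share, and they could be formed for genes with whole reads by dividing by the reads of *Krtap17-1*. The D20 mean of *Krtap17-1* was 1.28 times its D15 mean, below the median of each class. A member with a larger ratio therefore goes up against it from D15 to D20. *Krtap16-1*, its neighbour on chromosome 11, stood at 0.88, 0.84 and 0.84 times *Krtap17-1* in the 3 D15 libraries and at 0.85, 0.99 and 0.91 times at D20, so this ratio overlapped between the days. *Krtap14* stood at 0.38, 0.52 and 0.97 at D10, 1.27, 1.37 and 1.17 at D15 and 3.12, 3.20 and 3.65 at D20. *Krtap19-4*, a high glycine-tyrosine gene, stood at 0.17, 0.34 and 0.30 at D15 and 0.71, 0.87 and 0.69 at D20. *Krtap27-1*, one of the remaining members, stood at 0.13, 0.10 and 0.16 at D10, 0.039, 0.058 and 0.087 at D15 and 0.105, 0.122 and 0.172 at D20, from 17, 26 and 91 reads. For *Krtap14*, *Krtap19-4* and *Krtap27-1* every D20 library lay above every D15 library, while the D10 and D20 ratios of *Krtap27-1* overlapped. *Krtap20-2*, also high glycine-tyrosine, overlapped with 0.039, 0.015 and 0.068 at D15 and 0.064, 0.088 and 0.062 at D20, from 15 and 45 reads, and so did the ultra-high sulphur gene *Krtap9-5*, from 30 and 53 reads. *Krtap11-1* stood at 1.78, 1.83 and 1.48 at D15 and 2.20, 2.50 and 2.72 at D20, again without overlap. The D10 ratio of *Krtap14* was lowest in library 1, the library with the lowest family level.

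**Figure D4:**
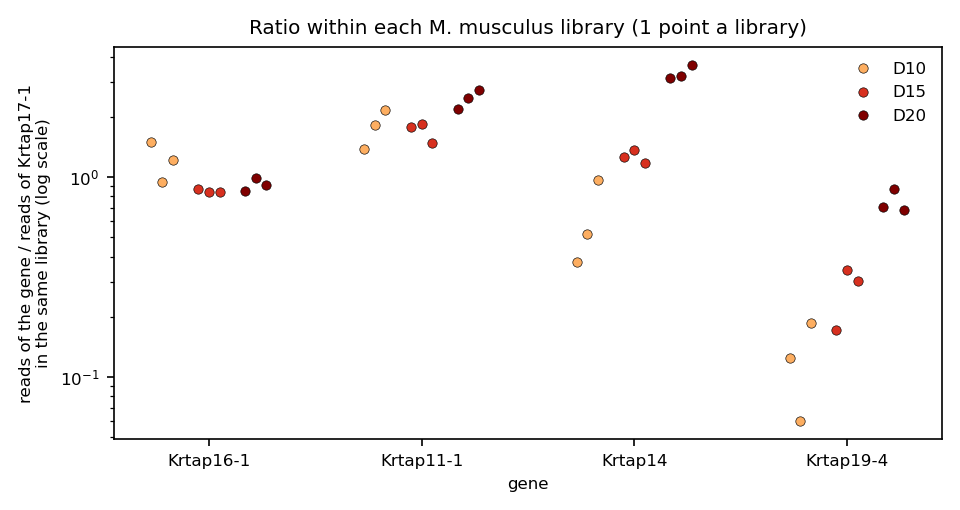
Reads of *Krtap16-1*, *Krtap11-1*, *Krtap14* and *Krtap19-4* divided by reads of *Krtap17-1* in the same *M. musculus* library, on a log scale, with 1 point a library and 3 points a day. *Krtap16-1* stays between 0.84 and 1.50, and *Krtap14* goes from 0.38 in a D10 library to 3.65 in a D20 library.

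By position, the members fell in 4 clusters of GRCm38. The 5 *Krtap5* genes lay at chr7:142174535-142304594, 3 genes of subfamilies 10 and 12 at chr10:77720599-77837252, 22 genes at chr11:99550130-99993994 and 23 genes at chr16:88610705-89571183. The D20 sum was 1.52 times the D15 sum for the chromosome 7 cluster, 1.56 times for chromosome 10, 2.13 times for chromosome 11 and 2.86 times for chromosome 16. The 14 members of the high glycine-tyrosine class lay in the chromosome 16 cluster, which held 43.2% of the summed read mean at D10 and 59.3% at D20. Position and composition therefore go together here and cannot be told apart for most members. Within chromosome 16, *Krtap24-1* and *Krtap26-1*, neither of them high glycine-tyrosine, had D20 to D15 ratios of 1.42 and 1.45, while *Krtap14* and *Krtap15*, also not of that class, had 3.28 and 3.11. *Krtap14* and *Krtap15* overlap in the annotation on opposite strands, and the libraries kept strand.

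*Krtap5*, with 5 genes, had a summed read mean of 2148 at D20, from 7.30 at D0. *Krtap5-2* had means of 1.61, 1.2, 90.5, 482 and 677 from D0 to D20, and all 5 *Krtap5* genes were called higher from D10 on. Subfamily 19, with 6 high glycine-tyrosine genes, went from 3.58 at D0 to 60.9, 599 and 2053 on the last 3 days, with 3 genes called higher at D10 and 6 at D15 and D20. Its D20 sum was 3.43 times its D15 sum, against 1.52 times for *Krtap5*. Per kilobase, subfamily 19 summed to 4198 at D20 and *Krtap5* to 1777, so on the scale that compares genes subfamily 19 stood higher. Subfamily 1, of 3 genes, stood at 5.05 at D0 and 1586 at D20, and *Krtap1-5*, its highest, had a D20 mean of 693. Subfamily 6 stood at 3.63 and 1384, with *Krtap6-2* at 629 at D20.

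The 8 members of subfamily 4, all ultra-high sulphur genes, had a summed mean of 6.65 at D0 and of 107, 546 and 1008 on the last 3 days, and 5 of them were called higher at D10 and 8 at D15 and D20. Their read means ranged at D20 from 33.1 for *Krtap4-8* to 258 for *Krtap4-1*. Subfamily 16 joins a pair of unlike genes. *Krtap16-1*, on chromosome 11, had a D20 to D15 ratio of 1.35, and *Krtap16-3*, a high glycine-tyrosine gene on chromosome 16, had 3.19. *Krtap9-3* was closest in sequence to *Krtap1-4*, at 90.1% identity, and had means of 2.11 at D0 and 633 at D20. *Krtap2-4* and *Krtap22-2*, with numbers of their own, stood at 0.39 and 0.46 at D0 and at 333 and 378 at D20.

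The genes of subfamilies 10 and 12, on chromosome 10, had the smallest D20 log2 fold changes after *Krtap3-2* among members with a mean of at least 10 over D0 and D20. *Krtap10-4* had means of 12.3, 3.67, 19.9, 54.2 and 89.5 from D0 to D20, *Krtap10-10* had 10.2, 2.88, 27.1, 109 and 159, and *Krtap12-1* had 10.3, 3.22, 20.8, 66.6 and 109. Their D20 log2 fold changes were 2.86, 3.97 and 3.40, and all 3 were called higher at D15 and D20 and none at D10. At D5 *Krtap10-10* was called lower. Together with *Krtap3-2* these were the 4 members with a D0 mean of at least 10. The reads of these 4 did not come out whole in any group, so their levels may include reads split between genes by estimate. With a mean of at least 10 required over D0 and D5, *Krtap3-2* was the 1 member left, so that setting says nothing of the other calls.

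*Krtap3-2* stood apart from the family. Its means were 159, 29.5, 49.5, 160 and 362 from D0 to D20. It was called lower at D5, with a log2 fold change of -2.42, and at D10, with -1.68, was not called at D15, with 0.02, and was called higher at D20, with 1.19. *Krtap3-3*, from the same subfamily, had means of 5.76, 1.86, 38.8, 226 and 581. The transcripts of this pair differ outside the coding sequence, while their 300 coding bases were identical, with 0 differing positions. The shared start is shown because reads from it fit either gene.
Krtap3-3 and Krtap3-2 coding bases 1 to 120: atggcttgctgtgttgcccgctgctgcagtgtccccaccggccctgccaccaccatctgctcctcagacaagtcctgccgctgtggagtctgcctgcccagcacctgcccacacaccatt
The authors' mapping splits such reads between genes by estimate, so the separate levels of *Krtap3-2* and *Krtap3-3* are uncertain, and the reads of neither came out whole at D0. The 3 genes of subfamily 3 summed to 166, 32.2, 110, 510 and 1237 over the same days.

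The members not called at D20 were *Krtap13*, *Krtap9-5* and *Krtap20-2*. *Krtap13* had 2, 1, 0, 1 and 0 reads over the groups from D0 to D20 and was near 0 throughout. *Krtap20-2* had no read at D0 or D5, then 1, 0 and 1 reads at D10 and 5, 3 and 7 at D15. At D20 it had 14, 13 and 18 reads and a posterior probability of 0.08. Every D20 library of *Krtap20-2* was above every D0 library, and the D20 mean of 12.5 was at least 10.5-fold higher. *Krtap9-5* had 23, 3 and 27 reads at D20 and none at D0, with a posterior probability of 0.83. *Krtap27-1*, with means of 0.46 at D0 and 24.5 at D20, was called at D20 and not at D15, and *Krtap31-1*, with means of 0.85 and 64.8, was called at D15 and D20.

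Other genes of the hair follicle were counted by lists for comparison, using genes whose number was placed with confidence. Of 16 keratins of the hair shaft, 12 were measured, and 12 were called higher on each of the last 3 days, against the 15.1%, 13.2% and 12.3% of all genes given above, with summed means of 36.9, 61.0, 1089, 4659 and 8427 from D0 to D20. *Krt84* was the 1 keratin called higher at D5, with means of 4.99 at D0 and 42.8 at D5, and without it the list summed to 31.9 at D0 and 18.2 at D5. *Krt33b* had the largest D20 log2 fold change among them, 10.02, and *Krt84* the smallest, 4.84. The sum of the hair shaft keratins at D20 was 1.81 times that at D15, and the family sum was 2.37 times. Of 10 genes of the inner root sheath and medulla, 8 were called higher at D10 and 10 at D15 and D20, from *Krt26* with 8.32 to *Krt75* with 3.87 at D20.

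The lists of regulators and enzymes held calls in both directions. Of 13 transcription factors and signals of the follicle, 0, 2, 1 and 3 were called higher from D5 to D20, and 6, 4, 2 and 2 lower. Over all genes, 16.5%, 15.1%, 13.2% and 12.3% were called higher and 13.6%, 14.1%, 12.5% and 11.9% lower. The 6 lower calls at D5 were a larger share than that of all genes. The later counts are small, and nothing is read from them about the list. *Shh*, a signal of the hair matrix, had means of 0.46 at D0 and 10.9 at D20 and a log2 fold change of 4.54, and *Gata3*, a transcription factor of the inner root sheath, went from 1608 to 656 with -1.29 and was called lower on all 4 days. Of 12 cross-linking enzymes and shaft proteins, 5, 8, 7 and 9 were called higher from D5 to D20, well above those shares of all genes. On each day 1 was called lower, which is near the share of all genes. The list summed to 1405, 5454, 3344, 4198 and 4189 from D0 to D20, so its sum was highest on the day on which the family was lowest. *Padi3*, which deiminates proteins of the follicle, had a log2 fold change of 7.01 at D20 and *Lipk*, a lipase of differentiating epidermis, -1.09.

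Markers of other cell types in the same ring of tissue had time courses of their own. Genes listed for the epidermis between hairs summed to 76549, 378990, 208653, 158017 and 84073 from D0 to D20, so they were highest on the day on which the family was lowest. The list holds *Krt17*, which the paper also found in hair follicles, so it does not separate that epidermis from the follicle. Sebaceous gland genes summed to 50184 at D0 and 7426 to 16658 after injury, with 8 of 9 called lower at D10 and 4 at D20, against 14.1% and 11.9% of all genes. Skeletal muscle genes summed to 39740 at D0 and 4319 to 5897 after injury, with 7 of 7 called lower on all days. Pigment genes, made by melanocytes that also colour the hair, summed to 981, 581, 776, 989 and 1460, with 2 of 9 called higher at D20, against 12.3% of all genes. The 2 were *Kit*, a receptor, with means of 145 at D0 and 451 at D20, and *Mitf*, a transcription factor, with 219 and 328, and both are also used by other cells. The other 7 pigment genes summed to 617, 275, 392, 461 and 682 from D0 to D20, and none of them was called higher at D20, with log2 fold changes of -0.31 to 1.02. Cartilage genes summed to 2394 to 5327 and macrophage and neutrophil genes to 1264 to 6785. *Ly6g*, a neutrophil marker, had no row and was not measured here, and the part of tissue makeup in the family's values was not tested.

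In *A. cahirinus*, the 17 paired components had summed means of 78.9, 107, 25.1, 112 and 445 from D0 to D20, which was 5.35, 6.43, 1.58, 7.32 and 30.8 per 1000000 normalized reads. The *M. musculus* partners of these 17 stood at 3.30, 1.05, 79.9, 534 and 1387 per 1000000 on their own scale, and the species were normalized separately. Of the components with a row, none of 16 was called higher or lower at D5 and none of 16 at D10, against 1.78% and 1.28% of all components higher and 0.978% and 0.88% lower. None of 17 was called at D15, against 1.33% higher and 1.11% lower. This holds for the reciprocal pairs. Components matched by members of subfamilies 4, 10 and 12 had a best *M. musculus* hit without a Krtap symbol, so these subfamilies have no pair. With one-way best hits, 2 components were called higher and 1 lower at D5, 2 higher at D10 and 2 higher at D15. At D20, 4 of 17 were called higher and 0 lower, against 0.948% and 0.9%. These shares are over all assembly components, and the share among paired components was not computed. With shares so low, nothing is read from the absence of calls at D5, D10 and D15. The 4 called at D20 were the partners of *Krtap5-2*, *Krtap26-1*, *Krtap13-1* and *Krtap6-2*. At a posterior probability of 0.99 the calls of *Krtap26-1* and *Krtap6-2* were lost and 2 were left.

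The low point came later in *A. cahirinus*. Its median log2 fold change over the pairs was 0.10, -1.79, 0.38 and 2.88 from D5 to D20, beside -0.09, -0.0037, -0.02 and -0.0002 over all components with a row. All 16 pairs with a row were below D0 at D10, and 17 of 17 were above D0 at D20, though 13 of these were not called. The difference in log2 fold change, taken as the *A. cahirinus* value less its partner's, went one way at D5 and the other way later. At D5 it was above 0 in 13 of 15 pairs with a row in both species, with a median of 1.94, and below 0 for *Krtap2-4* and *Krtap19-4*. At D5 *Krtap7-1* had 0.27 in *A. cahirinus*, with 1, 7 and 17 reads in libraries 1, 2 and 3. In *M. musculus* it had -3.97, from 11 reads at D0 and 1 at D5. *Krtap13-1* had 2.01 and -2.76, where *A. cahirinus* had 1, 0 and 0 reads at D0 and 0, 0 and 4 at D5. *M. musculus* had 5 reads of it at D0 and 1 at D5. Over 12 *A. cahirinus* pairs with whole reads, the D5 mean was 70.7, against 53.5 at D0, and 31.2 without library 3. In *M. musculus*, *Krtap19-9b* had -6.15 from 2 reads at D0 and 0 at D5, and *Krtap21-1* had -5.08 from 1 and 0. These folds depend on the constant in the ratio. Among the *M. musculus* partners *Krtap7-1* was called at D5, and this call was lost at a posterior probability of 0.99. The size of the D5 difference therefore rests in part on 1 *A. cahirinus* library and on few *M. musculus* reads. The difference was below 0 in 16 of 16 pairs at D10 and in 17 of 17 at D15 and at D20, with medians of -6.95, -7.49 and -6.59. Averaged over the days on which both had a row it lay between -8.94 and -2.55, below 0 in 17 of 17 pairs. The -2.55 was that of *Krtap3-3*, whose component also matched *Krtap3-2* with a bit score of 591, against 613. The *Krtap3-2* log2 fold changes of -2.42, -1.68, 0.02 and 1.19 were below the component's 0.77, -0.82, 0.71 and 2.21. *Krtap16-3* was a near tie too, at 190 against 186 for *Krtap19-3*. The count therefore depends on which member was paired, and with one-way best hits it was 38 of 42. The pairs with the largest differences, *Krtap20-2* and *Krtap14*, had 0 reads at D0 in *M. musculus*, so the size of their difference depends on the constant in the ratio. This difference was not tested over animals.

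The *A. cahirinus* reads per library could be read back at D0, D5, D10 and D20 and not at D15, where the steps between low means were those of 2 libraries. Over the 12 pairs with whole reads on these 4 days, the summed values in libraries 1, 2 and 3 were 66.2, 46.3 and 48.0 at D0 (mean 53.5 ± 11.0, SD, n = 3). They were 27.1, 35.2 and 150 at D5 (mean 70.7 ± 68.6), 17.6, 17.8 and 13.3 at D10 (mean 16.2 ± 2.55) and 636, 251 and 150 at D20 (mean 346 ± 256). Every D10 library was below every D0 library, every D20 library above it, and D5 overlapped D0 because library 3 stood apart at 150. Without library 1 the D20 mean was 201. At D5 libraries 1 and 2 lay below every D0 library, and without library 3 the D5 mean was 31.2.

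Single pairs differed in whether their libraries overlapped. Of 16 pairs with whole reads at D0 and D10, 7 had every D10 library below every D0 library, and of 13 with whole reads at D0 and D20, 10 had every D20 library above, where 0.88% of all components were called lower at D10 and 0.948% higher at D20. The share of all components with such libraries was not computed, so nothing is read from these counts. *Krtap7-1* had values of 11.0, 3.56 and 7.08 at D0, 1.29, 7.25 and 17.6 at D5, 1.95, 3.24 and 0 at D10 and 123, 42.8 and 24.0 at D20. Every D20 library was above every D0 library, with a log2 fold change of 3.13, and the gene was not called, with a posterior probability of 0.21. *Krtap15* had 11.0, 6.24 and 6.30 at D0, 0, 0.81 and 0 at D10 and 98.4, 36.5 and 24.0 at D20. *Krtap3-3* had 13.0, 13.4 and 9.45 at D0 and 95.7, 35.5 and 34.6 at D20, also without overlap and not called. *Krtap26-1*, which was called, had 4.01, 0.89 and 0 at D0, 0, 0 and 0.70 at D10 and 36.4, 26.1 and 6.22 at D20.

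*Krtap11-1* had 15.0, 8.02 and 11.8 at D0 and 4.88, 0.81 and 0.70 at D10 in *A. cahirinus*, where *M. musculus* had 2.75, 2.34 and 0 at D0 and 7.25, 56.3 and 90.3 at D10. The lowest pairs were near the limit of detection. *Krtap14* had no read at D0 and 2 reads at D20, *Krtap20-2* had 1 read at D0 and 6 at D20, all 6 in library 1, and *Krtap19-4* had 3 reads at D0 and 2 at D10. For these, no change was detectable at this depth. *Krtap19-9b* rests on an alignment of 59 bases and *Krtap20-2* on 81, and the other pairs on 89 to 749 bases.

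Hair shaft keratins of *A. cahirinus*, 5 of 16 paired, had no higher call on any day, with 2 called lower at D5, D10 and D15 and 0 at D20, against 0.978%, 0.88%, 1.11% and 0.9% of all components lower, and their sum was 179 at D0, 49.8 at D10 and 366 at D20. That list also had its lowest sum at D10. Of 5 paired genes of the inner root sheath and medulla, 2 were called higher at D15 and at D20, *Krt25* with a D20 log2 fold change of 4.12 and *Tchh*, a structural protein of the inner root sheath, with 4.00, while *Krt71* was called lower with -1.07. The component paired with *Krt71* had a D0 mean of 7979, against 109 for *Krt25* and 97.1 for *Tchh*. *Krt71* of *M. musculus* had 34.7 on its own scale, and the pairing was not checked beyond the best hits. At D20, 0.948% of all components were called higher and 0.9% lower, and at D15 1.33% were called higher, but the share among paired components was not computed, so the counts of these lists and markers are given as values. Of 8 paired shaft enzymes and binding proteins, 3 were called higher at D20, among them *S100a3* with 3.31, and 1 lower, and of 12 regulators 1 was called higher and 2 lower. Of the other markers, 6 of 7 sebaceous gland genes and 4 of 4 skeletal muscle genes were called lower at D20, 3 of 6 epidermal genes were called higher, and 1 of 4 cartilage genes was called higher and 3 lower. Of 9 pigment genes 1 was called higher and 1 lower, and 0 of 3 macrophage and neutrophil genes were called.

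**Figure D5:**
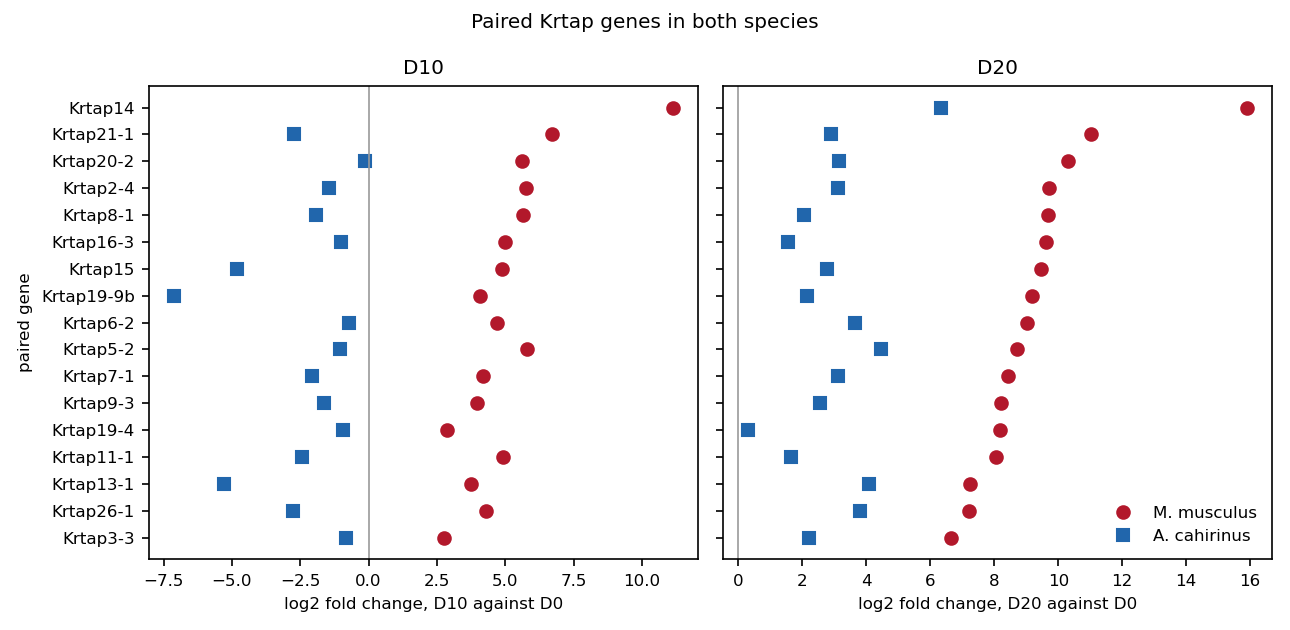
Log2 fold change against D0 of the 17 paired genes at D10 (left) and D20 (right), in *M. musculus* (circles) and *A. cahirinus* (squares), in order of the *M. musculus* D20 value; *Krtap14* had no *A. cahirinus* row at D10. At D10 the *A. cahirinus* values lie below 0 and the *M. musculus* values above, and at D20 both lie above 0 with *M. musculus* higher in every pair.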

How the data were processed

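RNA of ear tissue was extracted with Trizol and sequenced after ribosomal RNA reduction as strand-specific 50 bp paired-end libraries. The authors assembled the *A. cahirinus* transcripts with Trinity, used RSEM with Bowtie for mapping and EBSeq for each day against D0 at an FDR of 0.05. The build in the submitters' processing notes is mm10. The deposited tables of the authors hold, for each species and day, 2 fold changes that are a ratio of D0 to the day, and a posterior probability, a score between 0 and 1. These columns are the authors' own comparison, and they were used because the tables hold no other measure. The deposited BLASTN table of the authors lists the bit score, the aligned length in bases and the percent identity.

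Group means were solved exactly from the 2 ratios of a row, since the constants added differ (0.01 in one of them), and the sign was turned so that positive is higher after injury. A group mean is a sum of whole reads times the value of 1 read in each of 3 libraries, so reads per library were solved where a single solution fitted. D0 reads solved in 2 or more tables were the same for 6489 of 6489 genes. Gene numbers of *M. musculus* were named by placing them along GENCODE vM21 (GRCm38). Of known numbers placed at least as firmly as the least firm member, 1719 of 1722 were right (99.83%). The 5 members without a D5 row had no read at D0 or D5. Exact Poisson intervals (95%) and a floor of 3 reads over the D0 group cover counting error only. Since each group is 1 entry in the labels and libraries were recovered for part of the members, no test between animals was run beyond the authors' own. Solving of group means and of reads per library was checked on simulated data, and naming was checked on known numbers held out in turn.

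The members and gene lists were chosen with earlier results of these data known. Named genes were the paired members, the highest member of each subfamily, the 5 largest and 5 smallest D20 changes at a mean of at least 10, the extremes of each hair list and members with a sequence shown. Other genes named for their D10 libraries or their place in a cluster were chosen after their values were seen. Codon shares come from GENCODE coding sequences in place of proteins, and promoters were not used here. Software was Python 3.11.15, NumPy 2.4.6, SciPy 1.17.1, pandas 2.3.3, Biopython 1.88, minimap2 2.31 and BLAST 2.17.0.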

Additional observations from a re-analysis of the deposited data

Results flagged for a closer look

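Opposite directions in the libraries of the species at D10 were found for 3 pairs, with each D10 library of *A. cahirinus* below each of its D0 libraries and each D10 library of *M. musculus* above each of its own. The difference between species was not tested, and the share of all paired genes with such libraries was not computed. At D10, 0.88% of all components were called lower in *A. cahirinus* and 15.1% of all genes higher in *M. musculus*. For *Krtap15*, *A. cahirinus* had a log2 fold change of -4.82 and *M. musculus* had 4.87, a difference of -9.685. For *Krtap11-1*, the values were -2.44 and 4.91, a difference of -7.352. For *Krtap19-9b*, the values were -7.10 and 4.09, a difference of -11.19, where *A. cahirinus* had 4 reads at D0 and 0 at D10, so the size of its change depends on the constant in the ratio. In *M. musculus*, its lowest D10 value was 1.32, from 2 reads in library 1, and its highest D0 value was 1.17, from 1 read. For *Krtap15* these *M. musculus* values were 5.27 and 4.13, so both separations are narrow. All other pairs had overlapping libraries or lacked whole reads in a group.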

How the results depend on the processing

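Fold scales and centring leave the calls as they are and the threshold leaves the medians, so an alternative bears only on what it can change. Of the values for single genes, 14 lost their call at a posterior probability of 0.99. Of these, 9 were higher calls at D10, where 26 were left. With that threshold, 1 *M. musculus* member was lower at D5 and 2 *A. cahirinus* components were higher at D20. With a mean of at least 10, *Krtap3-2* was the 1 member left at D5 and 1 was lower, so the other calls were not tested there. The shrunken fold change gave a median of 7.32 at D20, and a pseudocount of 1 gave 5.88 at D15 and 6.68 at D20. Centring on the median gene moved *Krtap3-2* at D15 from 0.02 to -0.0018. With one-way best hits, 42 members shared 23 components, of which 2 were higher and 1 lower at D5, 2 higher at D10, 2 higher at D15 and 6 higher at D20. The difference between species was then below 0 in 38 of 42. Summing all components of a gene turned the *A. cahirinus* median at D5 to -0.075. Added after seeing the data, leaving out *Krtap3-2* gave sums of 89.5 at D0 and 31.4 at D5, and leaving out *Krt84* gave a hair shaft keratin sum of 18.2 at D5. The difference between species moved from -8.94 to -2.99 with the shrunken fold and -1.90 with a pseudocount of 1 for *Krtap20-2*, and from -8.85 to -7.59 with a pseudocount of 1 and -14.0 with summed components for *Krtap14*. Leaving out each library in turn gave sums over the 9 members of 2.34 to 7.85 at D0, 0.57 to 2.32 at D5, 81.5 to 190.2 at D10, 599 to 932 at D15 and 1453 to 1897 at D20. In *A. cahirinus* the sums over 12 pairs were 47.2 to 57.1 at D0, 31.2 to 92.5 at D5, 15.4 to 17.7 at D10 and 201 to 444 at D20. Hits of any identity gave the same 17 pairs, and 47 members had the higher placement confidence. Those without it were *Krtap6-2*, *Krtap7-1*, *Krtap8-1*, *Krtap11-1*, *Krtap20-2* and *Krtap21-1*, among them genes with the highest D20 means. Without them 45 of 47 members were called higher at D20. No member had a near-identical copy by the rule used, at least 95% identity over at least 80% of the transcript. *Krtap3-2* and *Krtap3-3*, with identical coding bases, fell outside that rule. Leaving near-identical copies out therefore removed no member and says nothing of shared reads. No paired analysis was possible because each group is a single entry in the labels and the recovered libraries carry no animal number.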
